A study of Mus musculus with 12 samples.

Results

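Doxorubicin added to carfilzomib was studied in 6 of the 12 libraries of the series: 3 of NIH/3T3 cells given both drugs (CFZ-DOX) and 3 of cells given carfilzomib alone (CFZ). The members were chosen by the treatment in the sample titles, and every expressed gene was examined. NIH/3T3 cells are immortalised fibroblasts derived from mouse embryos, labelled wild type and grown in DMEM with serum. CFZ cells received 200 nM carfilzomib and CFZ-DOX cells 200 nM carfilzomib with 5 µM doxorubicin, each for 8 h, so the proteasome inhibitor is common to both groups. The remaining 6 libraries, of vehicle (DMSO) and of 5 µM doxorubicin alone (DOX) for 8 h, are used only where the effect of doxorubicin with and without carfilzomib is compared. Polyadenylated RNA was counted per gene. Whether replicates came from separate cultures is not stated in the labels. P-values therefore reflect only how far these samples spread, and that spread may be technical. All cells come from 1 line at 1 dose of each drug and 1 time.

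Carfilzomib binds the proteasome irreversibly. Cells answer a blocked proteasome with several transcription programmes: heat shock factor 1 induces chaperones, NRF1 (Nfe2l1) induces proteasome subunits, NRF2 (Nfe2l2) induces antioxidant enzymes, and the integrated stress response acts through ATF4 on amino acid supply and cell death genes. Doxorubicin, an anthracycline, slips between DNA bases and traps topoisomerase II there, which breaks the strands and hinders transcription. How the transcripts of a proteasome-inhibited fibroblast change when this second drug is present is the question of the comparison.

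Several stress genes that fell carry a known stress element just before or after their start, as do some that did not fall. The promoters below, from RefSeq on GRCm38.p6, run from 250 bases before to 50 bases after the start and are written on the gene's strand. In the first 5 the capitals mark the core of the C/EBP-ATF response element, TGATGNAA on either strand, to which ATF4 and C/EBP dimers bind. Chac1, Trib3, Atf3 and Slc7a11 fell, and Asns is shown beside them because it holds the same core and was not called. In the last, that of the chaperone gene Hsph1, the capitals mark a heat shock element, GAANNTTCNNGAA, which reads TTCNNGAANNTTC on the other strand.
Chac1 (chr2:119350992-119351291, + strand): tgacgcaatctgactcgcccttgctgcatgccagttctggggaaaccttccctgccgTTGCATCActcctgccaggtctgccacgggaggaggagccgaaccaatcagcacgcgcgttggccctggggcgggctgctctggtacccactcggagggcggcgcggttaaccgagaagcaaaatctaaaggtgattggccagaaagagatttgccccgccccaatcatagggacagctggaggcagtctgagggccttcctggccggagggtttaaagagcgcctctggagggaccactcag
Trib3 (chr2:152344011-152344310, − strand): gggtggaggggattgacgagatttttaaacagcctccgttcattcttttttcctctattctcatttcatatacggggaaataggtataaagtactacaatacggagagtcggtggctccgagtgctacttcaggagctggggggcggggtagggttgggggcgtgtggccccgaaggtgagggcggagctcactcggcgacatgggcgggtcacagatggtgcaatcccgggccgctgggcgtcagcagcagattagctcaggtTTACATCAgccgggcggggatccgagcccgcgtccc
Atf3 (chr1:191183284-191183583, − strand): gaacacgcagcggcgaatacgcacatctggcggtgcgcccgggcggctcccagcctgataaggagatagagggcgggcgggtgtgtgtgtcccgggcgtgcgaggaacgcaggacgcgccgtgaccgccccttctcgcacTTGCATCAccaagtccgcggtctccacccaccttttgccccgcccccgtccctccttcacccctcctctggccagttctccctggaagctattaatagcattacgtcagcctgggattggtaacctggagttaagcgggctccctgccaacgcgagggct
Slc7a11 (chr3:50443564-50443863, − strand): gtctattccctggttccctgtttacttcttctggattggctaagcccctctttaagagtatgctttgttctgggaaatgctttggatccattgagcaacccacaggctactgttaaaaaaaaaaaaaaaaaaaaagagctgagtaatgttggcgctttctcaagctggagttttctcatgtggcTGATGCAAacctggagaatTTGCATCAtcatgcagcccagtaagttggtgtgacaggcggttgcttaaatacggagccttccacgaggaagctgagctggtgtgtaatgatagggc
Asns (chr6:7693160-7693459, − strand): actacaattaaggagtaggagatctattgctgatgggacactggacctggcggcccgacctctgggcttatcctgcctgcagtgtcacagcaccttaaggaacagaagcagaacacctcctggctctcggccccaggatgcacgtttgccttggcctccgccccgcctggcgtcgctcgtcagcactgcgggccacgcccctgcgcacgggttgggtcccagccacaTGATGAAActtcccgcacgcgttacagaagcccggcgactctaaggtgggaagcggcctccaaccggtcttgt
Hsph1 (chr5:149636287-149636586, − strand, 1 of its 2 entries): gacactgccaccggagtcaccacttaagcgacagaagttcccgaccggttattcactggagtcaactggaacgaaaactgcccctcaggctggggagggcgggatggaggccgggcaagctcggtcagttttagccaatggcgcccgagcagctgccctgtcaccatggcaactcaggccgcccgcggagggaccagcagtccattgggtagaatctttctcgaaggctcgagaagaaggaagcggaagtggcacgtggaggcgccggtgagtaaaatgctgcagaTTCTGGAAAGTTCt
The C/EBP-ATF core was in 8 of the 28 listed integrated stress response genes with an entry (28.6%). It was in 2.78% of the 10313 tested genes with an entry and 4.51% of all 27025 genes with an entry, each gene counted over all its entries. Of those 8, Chac1, Trib3, Atf3, Jdp2 and Vldlr fell (edgeR log2 fold changes −4.64, −4.35, −2.57, −1.62 and −1.60), while Asns, Nupr1 and Pck2 stood at 0.15, 0.24 and 0.18 and were not called. The heat shock element was in 5 of 19 chaperone genes (26.3%), against 0.562% of the tested genes with an entry and 0.662% of all genes with an entry. The log2 fold changes of the 5 were −3.42 for Hsph1, −2.88 for Chordc1, −1.17 for Hspd1, −0.91 for Hspe1 and −0.51 for Dnajb6. Hspd1 and Hspe1 lie on opposite strands with overlapping windows, and the same stretch was matched for both. The core of the antioxidant response element, TGACNNNGC on either strand, was in 7 of 19 NRF2 targets (36.8%). It was in 16.7% of the tested genes, 14% of all genes with an entry and 35.7% of the integrated stress response genes as well. The 7 stood at −3.45 (Srxn1), −2.76 (Gclm), −1.79 (Txnrd1), −0.69 (Prdx1), −0.61 (Me1), −0.23 (Pgd) and 0.67 (G6pdx). Of the 10 named genes that fell furthest, 8 had an entry. The C/EBP-ATF core was in 3 of these 8, the antioxidant core in 3 and the heat shock element in 0. A match describes the letters of the window only.

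The 6 libraries held 28278879 to 39685017 counts. Genes with at least 1 count numbered 21408 to 22253 in CFZ and 25622 to 26610 in CFZ-DOX, and the 20 most abundant genes took 9.455 to 10.237% of CFZ and 15.302 to 18.139% of CFZ-DOX counts. The first principal component of log expression held 89.4% of the variance and separated the groups. CFZ-DOX 3 stood apart from its group on the second (4.91% of the variance), at −48.8 against 32.9 and 15.1. This library was the highest of the 3 CFZ-DOX libraries for 57.6% of the genes called lower and 62.2% of those called higher under all 5 scalings described below. Fibroblast markers were present, with a summed level of 10351 to 14777 CPM (counts per 1e6 counts, after the TMM scaling named below) in CFZ and 30791 to 69368 in CFZ-DOX, although Fap was at 0 and Lum at 0 to 3 counts. Of 8 haematopoietic markers only Cd68, Lyz2 and Csf1r were tested, and all 3 were higher with doxorubicin (summed level of the list 3.25 to 3.97 against 21 to 36.8 CPM), with Ptprc at 0 to 3 counts in each library. The summed levels were 2.37 to 2.94 against 3.69 to 4.48 CPM for endothelial markers (3 of 7 tested, Kdr at 0 or 1 counts), 101 to 170 against 131 to 150 for epithelial markers (2 of 8 tested, nearly all Krt14, with Epcam at 0 to 5 counts), 20.6 to 25.6 against 23 to 25.2 for neural markers (3 of 8 tested, Rbfox3 at 0 to 5 counts) and 0.451 to 0.639 against 2.83 to 3.65 for muscle and fat markers (2 of 8 tested, Myod1 at 0 or 1 counts). The part of these markers in the results was not tested.

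Of 15200 genes tested, doxorubicin raised 6087 (40.0%) and lowered 5359 (35.3%) at an edgeR adjusted p under 0.05. Changes of at least 2-fold numbered 4814 upward (31.7%) and 3697 downward (24.3%). The CPM of the groups did not overlap for 11850 genes (78.0%). How many genes count as higher or lower depends on how libraries are scaled, since counts give each gene's share of the RNA in a library and not its amount per cell. Over all genes, the median log2 fold change was 0.10 with the TMM scaling used here and moved by 0.01 with DESeq2-type size factors, −0.41 with library size, 0.36 with the upper quartile and −1.70 when the ribosomal protein genes were taken as the fixed point. Upward calls made up 53.2, 53.4, 42.2, 63.9 and 14% of all calls under these 5 scalings. Genes called in the same direction under all 5 numbered 1703 higher (11.2%) and 4110 lower (27.0%). These equal the higher calls under ribosomal protein scaling alone (1703) and the lower calls under the upper quartile alone (4110). A higher call thus had to hold against a median shift of −1.70 and a lower call only against 0.36. Counts under all 5 scalings therefore lean to lower calls by construction. The balance of calls also depended on which genes were counted. Of the 9389 protein-coding genes averaging at least 5 CPM, 28.7% were called higher and 46.1% lower (2.36 and 35.5% under all 5 scalings). With a filter of 1 CPM in 3 libraries, 4701 genes were called higher and 4653 lower. The shares of all genes set beside lists below include scarce genes. Every fold change below is on the TMM scale, a call is an edgeR adjusted p under 0.05 on that scale, and calls under all 5 scalings are given beside it. In bulk RNA, fewer cells of a kind and less RNA per cell cannot be told apart.

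**Figure D1:**
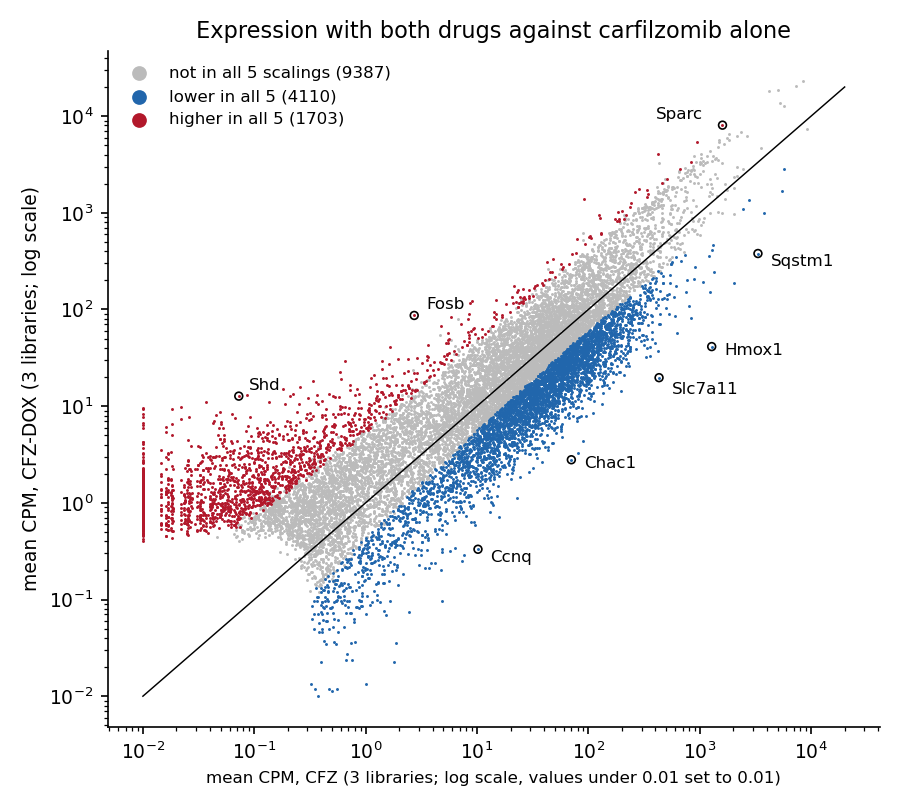
Mean CPM in CFZ (x axis) and CFZ-DOX (y axis) of the 15200 genes tested, on log scales. Blue points are the 4110 genes lower and red points the 1703 genes higher under all 5 scalings, grey points the rest, and the line marks equal levels. Hmox1, Slc7a11 and Sqstm1 lie far below the line at high CFZ levels, and many red points lie at the left edge, where CFZ levels were near 0.

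Several antioxidant genes that NRF2 controls were among the abundant transcripts that fell furthest. Hmox1 encodes haem oxygenase 1, which breaks down haem, and lies on chromosome 8, 75820249 to 75827217 of GRCm39. It stood at 1215, 1275 and 1353 CPM in CFZ 1 to 3 and at 36.9, 26.8 and 60.2 CPM in CFZ-DOX 1 to 3. This 31-fold fall (log2 fold change −4.95, SE 0.31, edgeR adjusted p = 8.39e-07) was the largest among genes averaging at least 5 CPM, a gene symbol other than a clone name and the same call under all 5 scalings. Slc7a11, the cystine transporter that feeds glutathione synthesis, fell from 398, 435 and 461 CPM to 17.3, 19.3 and 22.7 CPM (21.8-fold). Osgin1, an oxidative stress-induced growth inhibitor, fell from 77.4, 84.8 and 81.4 CPM to 2.52, 1.7 and 5.72 CPM. The rule that named these genes required groups without overlap, which held for 78.0% of all genes. The transcription factor Nfe2l2 itself fell 4.15-fold, from 136 to 191 CPM to 29.1 to 46.6 CPM. Not every target moved this way: of 24 listed, 13 were called lower and 8 higher (11 and 1 under all 5 scalings). Their median log2 fold change was −0.65, against 0.10 for all genes and −0.32 for protein-coding genes averaging at least 5 CPM. Gstm1, a glutathione S-transferase, rose from 32.2, 22.9 and 24.7 CPM to 199, 113 and 93.9 CPM (5.07-fold).

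Chaperone genes of the heat shock response were lower with doxorubicin as a group. Of 24 tested, 18 were called lower and 1 higher (15 and 0 under all 5 scalings), and their median of −1.43 was the lowest of the lists examined. Dnajb1, an HSP40 co-chaperone, fell from 1007, 659 and 845 CPM to 62.2, 58.4 and 125 CPM (log2 fold change −3.36, SE 0.32, edgeR adjusted p = 4.98e-06). Hsph1, an HSP110 nucleotide exchange factor, fell from 2006, 1917 and 2101 CPM to 153, 174 and 238 CPM. Ptges3, the p23 co-chaperone of HSP90, fell 11.3-fold, from 415 to 433 CPM to 32.2 to 40.8 CPM. In each of these genes the CFZ-DOX libraries lay far below the CFZ libraries. The inducible HSP70 genes did not follow. Hspa1b stood at 137, 131 and 141 CPM in CFZ and at 75.3, 54.8 and 222 CPM in CFZ-DOX (log2 fold change −0.21, SE 0.47, edgeR adjusted p = 0.693), and its near-identical neighbour Hspa1a at 14.2, 13.2 and 15 against 7.26, 4.26 and 24.1 CPM. CFZ-DOX 3 was the highest of the 6 libraries for both, and without it both were called lower (log2 fold changes −1.16 and −1.38). Reads may be split between these copies. The single higher chaperone, Hspb1, was scarce, at 0.132 to 0.254 CPM against 0.496 to 0.892 CPM. Hsf1, which encodes the heat shock factor, was at 93.9 to 106 CPM in CFZ and 84 to 105 CPM in CFZ-DOX.

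The proteasome genes were lower by a smaller amount. Of 42 genes for subunits, activators and assembly factors, 26 were called lower and 3 higher (18 and 0 under all 5 scalings), with a median of −0.60 and a summed level of 10340 to 10861 CPM in CFZ against 5918 to 7424 CPM in CFZ-DOX. Psmd5, an assembly chaperone of the regulatory particle, fell from 144, 140 and 139 CPM to 17.6, 22.8 and 25.4 CPM. The activator gene Psme4 fell 5.55-fold and the lid subunit gene Psmd11 4.9-fold. Psmb5 encodes the catalytic subunit that carfilzomib binds, and it stood at 56.6, 59.5 and 56.9 CPM in CFZ and 49.7, 59.7 and 43.2 CPM in CFZ-DOX. The groups overlapped there, and no call was made (edgeR adjusted p = 0.303). The 3 higher genes were the maturation factor Pomp (log2 fold change 1.12), Psmg4 (0.99) and Psmd8 (0.81). Nfe2l1 was called lower by 0.68 on the log2 scale (522 to 633 against 296 to 425 CPM), although not under upper-quartile scaling (log2 fold change −0.32).

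Ubiquitin genes and shuttle factors did not move as 1 group. Of 16 tested, 10 were called lower and 3 higher (8 and 0 under all 5 scalings), with a median of −0.87. Sqstm1, the autophagy receptor p62, was among the most abundant genes to fall, from 3331, 3136 and 3519 CPM to 404, 407 and 328 CPM (8.77-fold, edgeR adjusted p = 8.8e-07). The shuttle factor Ubqln2 fell 6.59-fold, and Nploc4, a cofactor of the p97 segregase, fell 6.33-fold. The higher genes included the ubiquitin-activating enzyme gene Uba1 (log2 fold change 1.09) and the ubiquitin-ribosomal fusion gene Rps27a (1.54). The polyubiquitin gene Ubb was at 1727, 1661 and 1886 against 2003, 1563 and 1578 CPM and was not called.

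In the integrated stress response, 17 of 30 genes were called lower and 4 higher (15 and 0 under all 5 scalings), with a median of −0.77. Chac1, a glutathione-degrading enzyme, fell from 65.5, 76.7 and 68.6 CPM to 3.05, 1.7 and 3.63 CPM (25-fold). Trib3, a pseudokinase induced by ATF4, fell from 85.9, 99.8 and 83.3 CPM to 4.07, 2.84 and 6.2 CPM (20.4-fold). The intronless Cebpb, encoding a C/EBP factor, fell from 10.7, 15.4 and 21.6 CPM to 1.13, 0.486 and 0.514 CPM, and Atf3 from 116, 118 and 142 CPM to 16.5, 10.3 and 36.4 CPM. The groups did not overlap for any of the 4, as for 78.0% of all genes. The rule that named Chac1, Trib3 and Cebpb required this. The 4 higher genes were the serine synthesis genes Phgdh (log2 fold change 1.65) and Psat1 (0.97), the mitochondrial folate enzyme gene Mthfd2 (0.66) and the transcription factor gene Atf5 (1.69). Endoplasmic reticulum (ER) unfolded protein response genes were called higher in 10 of 23, near the 40.0% of all genes, and lower in 5 (0 and 3 under all 5 scalings). Of protein-coding genes averaging at least 5 CPM, 28.7% were called higher and 46.1% lower. The median of the ER genes was 0.49, and their balance turned under ribosomal protein scaling (0 higher, 20 lower). The 3 lower under all 5 scalings were Herpud1, a component of ER-associated degradation (146, 138 and 119 against 11.2, 10.4 and 19.4 CPM), the ER chaperone gene Hspa5 (3700 to 3857 against 758 to 1121 CPM) and the transcription factor gene Xbp1 (102 to 121 against 28.1 to 52.9 CPM).

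**Figure D2:**
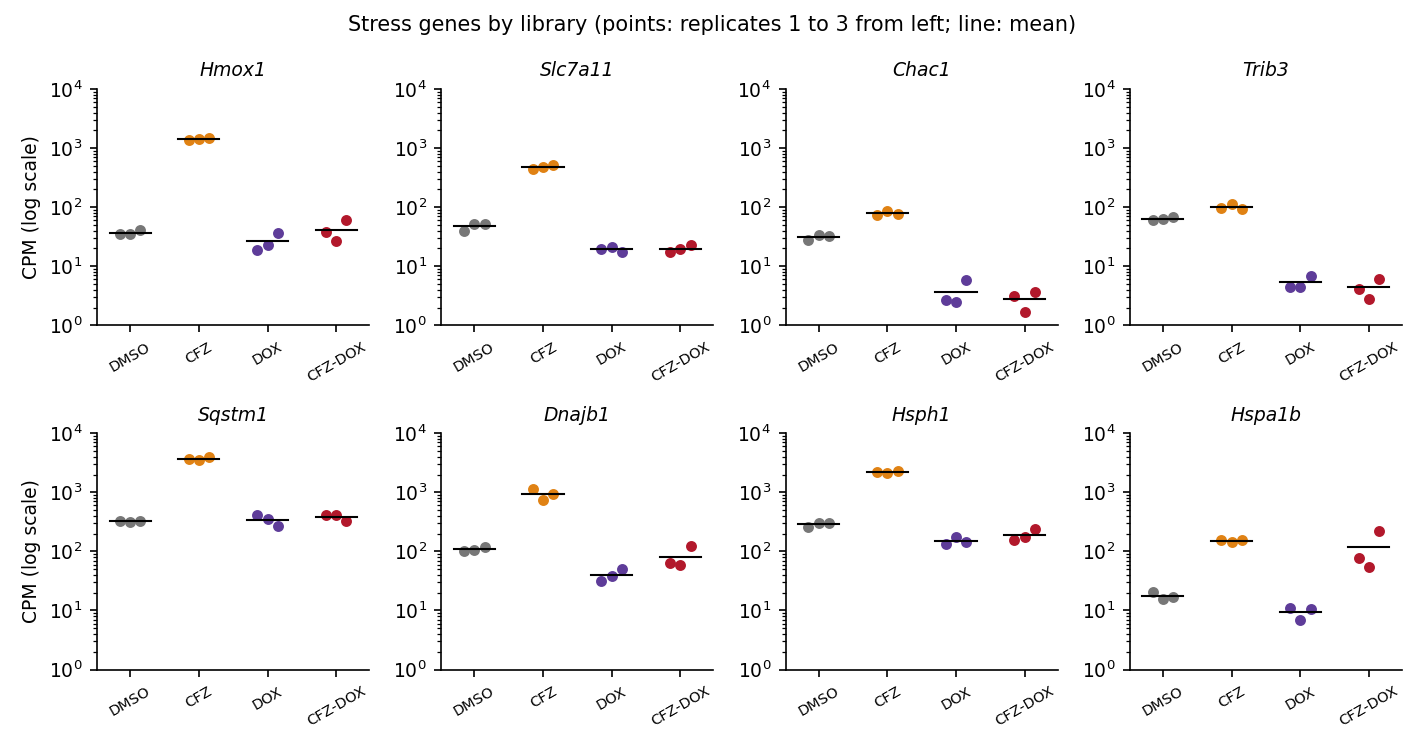
CPM (log scale, same range in each panel) of 8 stress genes in the 12 libraries, normalised over all 12. Points are replicates 1 to 3 from left to right and lines are means. For Hmox1, Sqstm1 and Slc7a11 the CFZ libraries stand high above the other 3 groups, and for Hspa1b CFZ-DOX 3 lies above the CFZ libraries.

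Targets of p53, which DNA damage induces in many cells, were mostly lower. Of 29 tested, 16 were called lower and 6 higher (15 and 0 under all 5 scalings), with a median of −0.94. Mdm2, the ubiquitin ligase of p53, fell from 474, 482 and 552 CPM to 120, 97.7 and 164 CPM. Gadd45a fell from 199, 199 and 196 CPM to 11.4, 8.15 and 23.2 CPM (13.8-fold), and Phlda3, an inhibitor of AKT, from 335, 354 and 296 CPM to 27.1, 23.5 and 45.4 CPM. The cell cycle inhibitor gene Cdkn1a fell 2.06-fold, from 361, 301 and 280 CPM to 139, 121 and 198 CPM. The death receptor gene Fas fell 3.82-fold, from 46.5, 26.6 and 37.4 CPM to 7.8, 6.57 and 14.5 CPM. Pmaip1, which encodes the BH3-only protein NOXA, rose from 19, 21 and 26.5 CPM to 42.5, 34.4 and 62.6 CPM (log2 fold change 1.07, SE 0.23, edgeR adjusted p = 0.00138), but its sign turned under ribosomal protein scaling (−0.60). Trp53 was called lower by 0.69 on the log2 scale, with −0.32 and no call under the upper quartile.

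BCL2 family transcripts moved in both directions. Of 13 tested, 7 were called higher and 6 lower (1 and 4 under all 5 scalings). The shares of all genes were 40.0 and 35.3% (11.2 and 27.0% under all 5 scalings). Bcl2l11, which encodes the pro-apoptotic BIM, rose from 9.34, 10.1 and 8.21 CPM to 58.2, 55.2 and 77 CPM (6.87-fold). Mcl1, which encodes a short-lived survival factor, fell from 162, 142 and 144 CPM to 18.9, 17.2 and 28.4 CPM (6.94-fold). The other 3 lower under all 5 scalings were the survival gene Bcl2l1 (log2 fold change −1.28) and the pro-apoptotic genes Bid (−1.46) and Bbc3 (−0.94). Thus the 4 included genes of either role.

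Among the targets and transporters of doxorubicin, Top2a, the topoisomerase II of dividing cells, fell from 296, 284 and 266 CPM to 46.1, 59.4 and 50.3 CPM (5.44-fold). The isoform gene Top2b fell 1.91-fold, from 121 to 139 CPM to 66.3 to 67.6 CPM. The efflux pump gene Abcb1a fell from 4.87, 6.41 and 5.7 CPM to 2.02, 1.5 and 0.753 CPM, and its more abundant paralogue Abcb1b was not called (277, 295 and 312 against 315, 281 and 209 CPM). Mitotic genes were called lower in 13 of 30 and higher in 8 (11 and 0 under all 5 scalings, median −0.11). Of all genes, 35.3% were called lower and 40.0% higher (27.0 and 11.2% under all 5 scalings). Of protein-coding genes averaging at least 5 CPM, 46.1% were called lower and 28.7% higher (35.5 and 2.36%). Cdk1, the mitotic kinase gene, fell 3.35-fold and Ect2, needed for cytokinesis, 3.21-fold. DNA replication genes were called higher in 15 of 41, near the 40.0% of all genes, and lower in 9 (median 0.17). These counts were 0 and 6 under all 5 scalings, and 0 and 39 under ribosomal protein scaling. Of protein-coding genes averaging at least 5 CPM, 28.7% were called higher. The licensing factor gene Cdc6 fell 3.62-fold. In DNA repair and damage signalling, 13 of 36 were called lower and 7 higher (9 and 0 under all 5 scalings, median −0.21), shares close to the 35.3% and 27.0% of all genes called lower. Both shares were under the 46.1% and 35.5% of protein-coding genes averaging at least 5 CPM. The checkpoint kinase gene Chek2 fell 7.12-fold, from 11.8, 13.8 and 13.2 CPM to 1.52, 1.82 and 2.09 CPM, and Trp53bp1, a sensor of double-strand breaks, fell 4.03-fold.

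Immediate early genes, which respond to signals within minutes, moved both ways. Of 28 tested, 12 were called lower and 10 higher (11 and 4 under all 5 scalings). The shares of all genes were 35.3 and 40.0% (27.0 and 11.2% under all 5 scalings). The list ran from −3.80 to 4.99 on the log2 scale. Fosb rose from 2.96, 2.24 and 2.99 CPM to 70.6, 56.6 and 133 CPM (31.8-fold, edgeR adjusted p = 9.74e-07), and Fos from 3.7, 0.461 and 0.79 CPM to 32.2, 21.9 and 68.6 CPM. The nuclear receptor genes Nr4a2 and Nr4a3 rose with them (log2 fold changes 3.14 and 3.54). The groups were separate for all 4, as for 78.0% of all genes, with CFZ-DOX 3 the highest library. Klf2 fell 13.9-fold, from 29.7 to 32.8 CPM to 1.58 to 2.84 CPM, Ier3 9.77-fold and Klf6 8.38-fold. Feedback inhibitors of MAPK signalling were called lower in 10 of 16 and higher in 3, namely Dusp4, Spred3 and Spry1 (9 and 0 under all 5 scalings, median −1.11). Errfi1, an inhibitor of the EGF receptor, fell from 162, 84.9 and 69 CPM to 11.2, 9.45 and 19.3 CPM, Spred1 fell 5.86-fold and the phosphatase gene Dusp10 5.01-fold.

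Inflammatory genes of the NF-kB list were called lower in 11 of 21 and higher in 3, namely Lif, Il6 and Icam1 (9 and 1 under all 5 scalings, median −0.77). The chemokine gene Ccl7 fell from 247, 95.6 and 70.6 CPM to 17.4, 15 and 17.3 CPM, Cxcl5 fell 4.35-fold, and Nfkbia, the feedback inhibitor of NF-kB, fell from 53, 38.5 and 37.5 CPM to 6.91, 4.5 and 18.5 CPM. CFZ 1 was the highest CFZ library for all 3. Lif, a cytokine gene, rose from 1.2, 1.05 and 1.1 CPM to 7.23, 4.78 and 7.6 CPM. Of 20 interferon-stimulated genes 13 were tested, 5 of them called higher, near the 40.0% of all genes, and 2 lower (3 and 1 under all 5 scalings). The 3 were the immunoproteasome subunit genes Psmb8 (0, 0.022 and 0.0564 CPM against 6.98, 5.92 and 10.2 CPM) and Psmb9 (0.747 to 0.846 against 6.08 to 10.9 CPM) and the factor gene Irf7 (0.132 to 0.266 against 5.03 to 8.15 CPM). All 3 were scarce in CFZ. Ifit2 fell 4.12-fold. Of 25 sterol synthesis and uptake genes, 11 were called lower and 6 higher (9 and 2 under all 5 scalings, median −0.20). Of all genes, 35.3% were called lower and 40.0% higher (27.0 and 11.2% under all 5 scalings). Of protein-coding genes averaging at least 5 CPM, 46.1% were called lower and 28.7% higher (35.5 and 2.36%). The demethylation enzyme gene Msmo1 fell 7.54-fold and the sterol sensor partner gene Insig1 5.62-fold, while the reductase gene Tm7sf2 rose 9.63-fold, from 1.69 to 2.93 CPM to 21 to 25 CPM.

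Numbered zinc finger genes (symbol Zfp and a number) formed the longest list examined, and include many transcription repressors of the KRAB type. Of 374 such genes, 299 were tested, 217 called lower and 25 higher (192 and 1 under all 5 scalings), with a median of −1.40 and a summed level of 5589 to 6011 CPM in CFZ against 2519 to 3497 CPM in CFZ-DOX. Zfp770 fell from 20.7, 23.3 and 24.4 CPM to 0.921, 0.649 and 1.78 CPM (20.2-fold), Zfp90 16.3-fold and Zfp157 16.2-fold. The 1 higher gene, Zfp811, had no count in CFZ and 0.308 to 0.78 CPM in CFZ-DOX. Ccnq, a cyclin gene of 1 exon block on chromosome 11, 78641332 to 78642555 of GRCm39, fell from 9.98, 11.3 and 9.23 CPM to 0.425, 0.122 and 0.445 CPM (29.8-fold). SR and hnRNP splicing factor genes were called lower in 17 of 30 and higher in 3, namely Ptbp1, Hnrnph3 and Hnrnpa2b1 (11 and 0 under all 5 scalings, median −0.68). Srsf1 fell from 253, 268 and 278 CPM to 33.4, 42.8 and 41.4 CPM, Srsf2 5.89-fold and Srsf3 4.41-fold.

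Of 35 genes of transcription elongation and RNA polymerase II, 18 were called lower and 10 higher (16 and 2 under all 5 scalings, median −0.46). Aff1, a scaffold of the super elongation complex, fell 8.22-fold, from 197 to 243 CPM to 18.3 to 38.1 CPM. Nelfa, a subunit of the pausing factor NELF, fell 4.85-fold. The 2 higher genes were Hexim1, whose product holds the elongation kinase P-TEFb inactive (65.1, 56.4 and 47.3 against 293, 241 and 349 CPM), and the small polymerase subunit gene Polr2l (log2 fold change 2.25). The kinase gene Cdk9 stood at −0.24 and was not called. snoRNA host genes were called lower in 6 of 16 and higher in 5 (5 and 1 under all 5 scalings, median −0.14), close to the all-gene shares of lower calls. Snhg5 fell from 89.5, 126 and 117 CPM to 4.85, 5.11 and 15.8 CPM, Snhg17 3.91-fold and Snhg12 2.76-fold.

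Translation genes moved apart by kind. The 83 cytosolic ribosomal protein genes tested rose together: 82 were called higher and 0 lower, with a median log2 fold change of 1.74, which is 1.64 above the median of all genes. Their share of all counts was 3.841 to 4.325% in CFZ and 9.856 to 10.51% in CFZ-DOX, with no overlap. Rpl41 stood at 325, 378 and 323 CPM in CFZ and 1919, 1532 and 1293 CPM in CFZ-DOX (log2 fold change 2.21, SE 0.21, edgeR adjusted p = 4.92e-06), and Rpl37a and Rpl31 rose 4.4- and 4.38-fold. When these genes are themselves taken as the fixed point their median is near 0 by construction, and 6 of them were called higher and 7 lower on that scale. Pseudogene copies are many in this family, so the split of reads among them is uncertain. Translation factor genes were called higher in 16 of 34 and lower in 10 (0 and 4 under all 5 scalings, median 0.42), which turned to 0 higher and 31 lower under ribosomal protein scaling. Of all genes, 40.0% were called higher and 35.3% lower (11.2 and 27.0% under all 5 scalings). Of protein-coding genes averaging at least 5 CPM, 28.7% were called higher and 46.1% lower (2.36 and 35.5%). Eif3a, the scaffold of initiation factor eIF3, fell 3.27-fold, from 812 to 982 CPM to 262 to 296 CPM. Aminoacyl-tRNA synthetase genes were called lower in 7 of 20 and higher in 3, namely Qars, Vars and Kars (5 and 0 under all 5 scalings, median −0.19), shares close to the 35.3% and 27.0% of all genes called lower. Both shares were under the 46.1% and 35.5% of protein-coding genes averaging at least 5 CPM. Iars, the isoleucine enzyme gene, fell from 364, 425 and 408 CPM to 34.7, 60.3 and 41.5 CPM.

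Energy metabolism genes were likewise mostly higher with TMM. Of 73 nuclear genes of the respiratory chain, 68 were called higher and 0 lower, with a median of 1.56 (1.46 above that of all genes), while ribosomal protein scaling gave 7 higher and 22 lower. The complex III gene Uqcr11 rose 5.4-fold, from 25.3 to 32.9 CPM to 122 to 188 CPM, the complex IV gene Cox7b 5.17-fold and the ATP synthase gene Atp5e 5.04-fold. The 13 mitochondrially encoded genes, which another polymerase transcribes, had a median of 0.42 with 5 called higher, near the 40.0% of all genes, and 0 lower. Among the abundant ones, mt-Co1 rose from 5811, 4368 and 6814 CPM to 13391, 11985 and 12867 CPM, with the sign turned under ribosomal protein scaling (−0.54), and mt-Nd1 was not called (3298 to 3755 against 4271 to 5499 CPM). Mitochondrial ribosomal protein genes did not share the rise of their cytosolic counterparts. Of 77 tested, 28 were called lower and 26 higher (20 and 0 under all 5 scalings, median −0.10), close to the all-gene shares of lower calls, with Mrps2 down 9.24-fold, Mrpl44 9.21-fold and Mrps22 6.17-fold. Of protein-coding genes averaging at least 5 CPM, 46.1% were called lower (35.5% under all 5 scalings). Glycolytic genes were called higher in 13 of 16 and lower in 1 (1 and 1 under all 5 scalings, median 1.21), and in 1 and 10 under ribosomal protein scaling. Tpi1, for triosephosphate isomerase, rose from 231, 266 and 209 CPM to 1285, 1277 and 915 CPM, and the glucose transporter gene Slc2a1 fell from 344, 306 and 242 CPM to 42.5, 45.4 and 55.3 CPM. Gapdh, often used as a reference gene, was at 1395, 1616 and 1394 CPM in CFZ and 5296, 5247 and 3968 CPM in CFZ-DOX, and Actb, another, was not called (1884, 1735 and 1469 against 1461, 1805 and 875 CPM). The log2 fold change of Gapdh was 1.72 with TMM and −0.00 under ribosomal protein scaling.

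Matrix and contractile genes of the fibroblast were also mostly higher with TMM. Of 29 extracellular matrix genes, 23 were called higher and 3 lower (2 and 3 under all 5 scalings), with a median of 1.72 and a summed level of 27094 to 39371 CPM in CFZ against 63059 to 152082 CPM in CFZ-DOX. Ribosomal protein scaling gave 2 higher and 6 lower. CFZ-DOX 1 was the highest library and CFZ-DOX 3 the lowest of its group. Sparc, a collagen-binding glycoprotein, stood at 2009, 1401 and 1405 CPM in CFZ and 11918, 6643 and 5622 CPM in CFZ-DOX, and the gelatinase gene Mmp2 rose 5.13-fold. The 3 lower genes were Ccn1 (467, 283 and 330 against 33.3, 25.3 and 63.3 CPM) and Ccn2 (log2 fold change −1.09), both matricellular factors, and the metalloproteinase inhibitor gene Timp3 (−2.44). Contractile and actin genes were called higher in 16 of 21 and lower in 2 (2 and 0 under all 5 scalings, median 1.47), and in 2 and 9 under ribosomal protein scaling. The calponin gene Cnn1 rose 5.92-fold, from 4.5 to 4.99 CPM to 22.5 to 33.1 CPM, and the myosin light chain gene Myl6 4.31-fold, while Actg1 and Zyx fell by 1.05 and fell by 0.69 on the log2 scale. Of the fibroblast markers, Pdgfra, the PDGF alpha receptor gene, fell from 159, 119 and 93.2 CPM to 35.4, 21.9 and 23.2 CPM, and Thy1 rose from 62.1 to 87 CPM to 255 to 503 CPM.

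Replication-dependent histone genes, whose transcripts normally end in a stem-loop and not in a poly(A) tail, were close to absent in CFZ. Of 69 such genes, 33 were tested, 31 called higher and 1, Hist1h2ao, lower (24 and 1 under all 5 scalings). Only 5 of the 33 had at least 10 counts in each CFZ library, so most passed the filter through the group in which they were high, and these counts, like their median of 3.94, are a description and are not set against other lists. The summed level of all 69 was 7.73 to 12.3 CPM in CFZ and 70.4 to 114 CPM in CFZ-DOX. Hist2h2be, which also yields a polyadenylated form, rose from 0.612, 0.307 and 0.395 CPM to 7.87, 8.47 and 11.4 CPM (log2 fold change 4.40, SE 0.31, edgeR adjusted p = 1.23e-06). The linker histone gene Hist1h1c was at 4.05, 2.48 and 1.69 against 17.2, 7.14 and 2.19 CPM (edgeR adjusted p = 0.0499). Its groups overlapped in CFZ-DOX 3, and its sign turned under ribosomal protein scaling (−0.15). Of histone genes with poly(A) transcripts, the linker gene H1f0 fell from 81.3, 68.3 and 60.7 CPM to 14.8, 15.7 and 16.3 CPM, and H2afz rose from 227 to 278 CPM to 316 to 411 CPM. Reads of near-identical histone copies may be split among them.

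**Figure D3:**
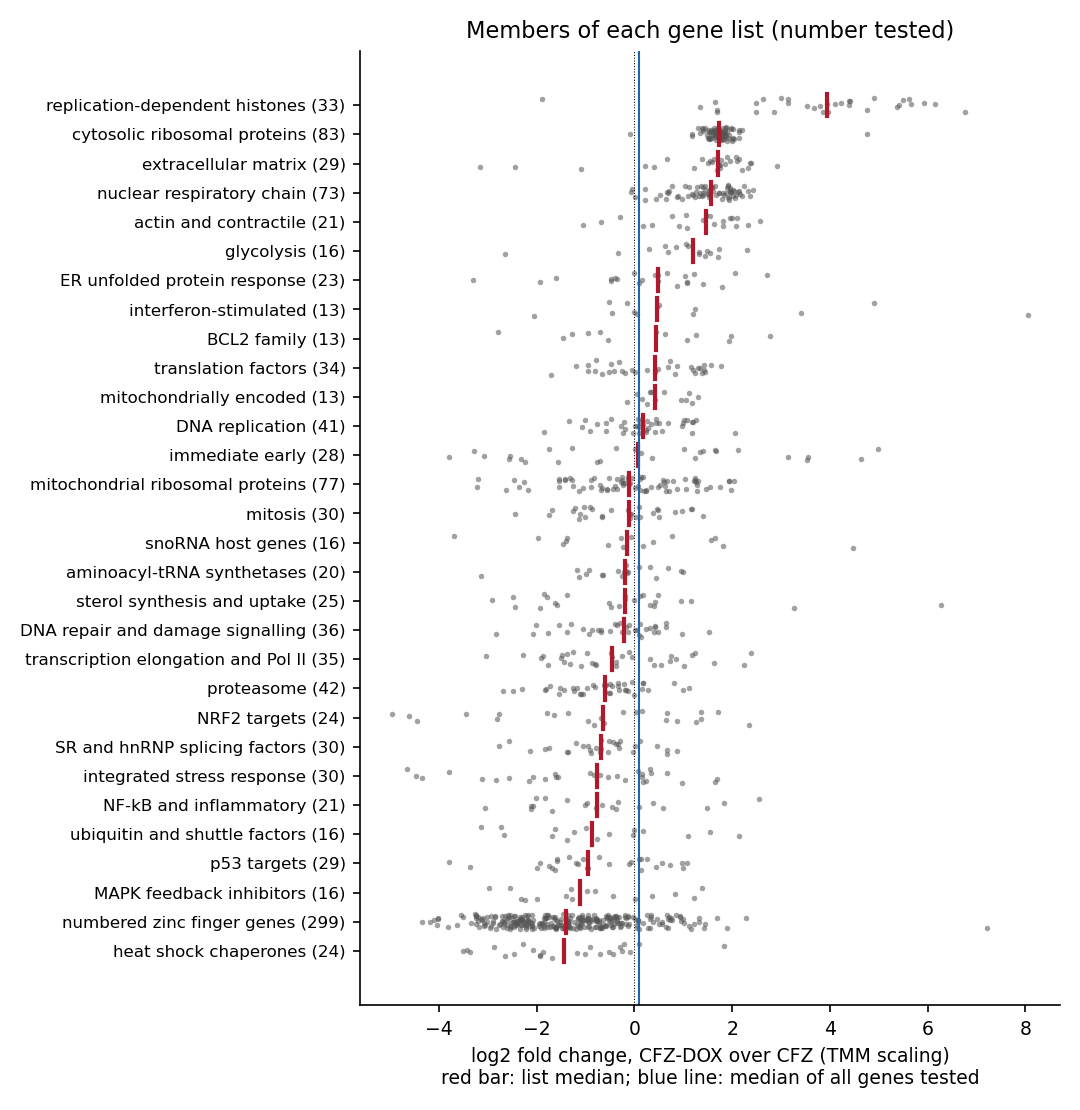
Log2 fold changes (x axis) of the tested members of each gene list, 1 point per gene, with red bars at list medians and a blue line at the median of all genes tested, 0.10. Ribosomal protein genes (1.74) lie to the right of that line, and zinc finger genes (−1.40) and heat shock chaperones (−1.43) to the left. Most replication-dependent histones passed the filter through CFZ-DOX, so their place is a description.

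Across genes, the change varied with gene structure. These values are over the 9715 genes averaging at least 5 CPM, whose median was −0.30. By exon length, the median fell from 2.03 for the 59 genes of at most 500 bases to −0.84 for the 1963 genes over 8000 bases (Spearman rho −0.331 across genes, which are not independent replicates). By length in the genome, it fell from 1.37 for 513 genes of at most 3000 bases to −0.92 for 178 genes over 300000 bases (rho −0.325). Genes of 1 exon block had a median of 0.95 and genes of more than 16 blocks −0.62 (rho −0.181). The 2 lengths were partly separable: among protein-coding genes of at most 10000 bases in the genome, the median ran from 1.05 for exon lengths up to 2000 bases to −0.11 for those over 5000, and among genes over 50000 bases from 0.44 (38 genes) to −0.84 (2180 genes). Medians also differed by mean level over the 6 libraries, at 1.42 for the 320 genes over 500 CPM and −0.49 for the 1767 genes between 10 and 20 CPM. That level includes the CFZ-DOX libraries, so a rise itself lifts a gene's class, and these medians are a description. Among the lists, the tested ribosomal protein genes had a median exon length of 1734 bases and the zinc finger genes 4730 bases, against 3834 bases for all genes tested. The lists also ran against length, as matrix genes, at a median of 6619 bases, were higher. Processed pseudogenes (134 genes) had a median of 1.64 and protein-coding genes (9389) −0.32.

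**Figure D4:**
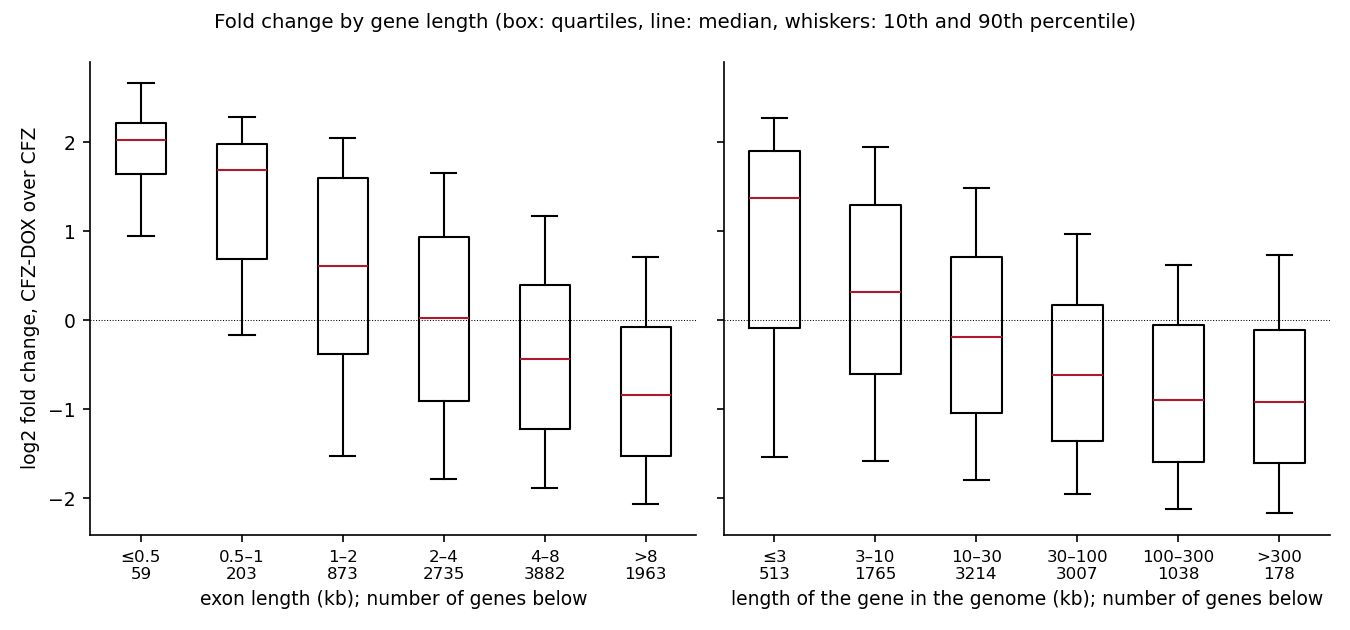
Log2 fold change of the 9715 genes averaging at least 5 CPM by exon length (left) and length in the genome (right), both in kilobases, with the number of genes under each class. Boxes give quartiles, red lines medians and whiskers the 10th and 90th percentiles. Medians step down from 2.03 to −0.84 on the left and from 1.37 to −0.92 on the right.

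Doxorubicin also brought up transcripts that were close to absent with carfilzomib alone. No count was found in CFZ for 31386 genes, 82 of which reached 0.5 CPM in each CFZ-DOX library and 20 of which reached 1 CPM. In the other direction, 26238 genes had no count in CFZ-DOX and 0 of them reached 0.5 CPM in each CFZ library. Cldn6, a tight junction gene on chromosome 17, 23898223 to 23901420 of GRCm39, had 0 counts in CFZ and 5.67, 10.9 and 11.5 CPM in CFZ-DOX, at least 368-fold higher against a floor of 3 counts over the CFZ group. Efna2, encoding ephrin A2, had 1 count in CFZ and 792 counts in CFZ-DOX, a ratio of 1144 with a 95% Poisson interval of 205 to 45170, and Myo15, a myosin of hair cells, had 2 and 785 counts, a ratio of 567 (157 to 4680). Shd, a signalling adaptor, went from 0.0799, 0.11 and 0.0282 CPM to 11.7, 13.5 and 12.9 CPM (9 counts in all of CFZ and 1041 in CFZ-DOX), Btnl9 from 0.0266 to 0.0659 CPM to 4.99 to 11.8 CPM, and the synaptic vesicle gene Sv2a from 0.0266, 0.0878 and 0.141 CPM to 9.07, 13.1 and 17.3 CPM. Many of the genes that rose furthest are known from other tissues. They included the liver bile acid transporter gene Slc10a1 (82-fold), the podocyte and neuronal gene Ddn (75.7-fold), the skeletal muscle gene Jsrp1 (62.3-fold), the amine oxidase gene Aoc3 (58.2-fold), Slc23a3 (57.8-fold), Lag3, which encodes an inhibitory receptor on T cells (54.5-fold), the brush border myosin gene Myo1a (53.8-fold) and the small GTPase gene Rhof (44-fold, from 0.48 to 0.825 CPM to 22.3 to 37.2 CPM). All stayed under 40 CPM in each library. Genes this low in CFZ pass the filter through CFZ-DOX, so their number and fitted folds are a description, and the folds depend on the prior count of the fit.

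Position gave 1 further feature of the silent genes. Of the 17 protein-coding genes with 0 counts in CFZ and at least 1 CPM in each CFZ-DOX library, 6 (35.3%) began within 10000 bases downstream of a gene on the same strand with at least 5 CPM in CFZ. The share was 2.13% (135 of 6348) for the other protein-coding genes with 0 counts in CFZ. Within 50000 bases the shares were 58.8 and 8.92%. No gene of the 17 overlapped such an expressed gene on its own strand, and 2 overlapped one on the other strand. With no strand setting stated for the counting, reads of antisense partners cannot be told apart.

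The effect of doxorubicin with carfilzomib was broadly like that without it, which uses the DOX and DMSO libraries and shares none with the comparison above. Across 15200 genes the log2 fold changes of the 2 comparisons had a Pearson r of 0.89, and 0.848 over the 9715 genes averaging at least 5 CPM. The difference between the effects was tested in a fit of all 12 libraries (16648 genes). It was called for 1408 genes that were higher (8.46%) and 1862 that were lower (11.2%) when carfilzomib was present. These counts depend on scaling, with 246 and 5222 under ribosomal protein scaling, and on single libraries, with 792 higher without CFZ 3, 833 without DMSO 2, 899 without DMSO 3 and 2172 without CFZ-DOX 3. With the replicate number as a block the counts were 2356 and 2675. Deviations of same-numbered DOX and CFZ-DOX libraries correlated (0.581, 0.353 and 0.654), while those of CFZ and CFZ-DOX libraries did not in every pair. Several of the genes with a difference were abundant with carfilzomib alone and scarce in the other 3 groups. The effects of single genes given next are all from the 12-library fit, and those with carfilzomib differ a little from their values in the 6-library fit. Hmox1 had means of 37.1 CPM in DMSO, 1426 in CFZ, 26.3 in DOX and 41.3 in CFZ-DOX. In that fit it changed by −0.49 without carfilzomib (edgeR adjusted p = 0.114) and by −5.11 with it, a difference of −4.61 (SE 0.39, edgeR adjusted p = 1.17e-05). Sqstm1 differed by −3.37, Slc7a11 by −3.31 and Osgin1 by −3.11. Doxorubicin moved Fas and Atf3 in opposite directions: Fas rose by 1.96 on the log2 scale without carfilzomib and fell with it (difference −4.05), and Atf3 rose by 1.05 and fell with it (difference −3.77). Abcb1a stood at 0.43 without carfilzomib, not called, and fell with it (difference −2.57). Pmaip1 rose in each case, by 3.56 without and 0.91 with carfilzomib (difference −2.64). Ccnq changed by −4.42 without and −5.05 with carfilzomib, Zfp90 by −4.03 and −4.18, and Cebpb by −5.04 and −4.62. No difference was called for these 3 genes, which does not show that the effects are equal. Fitted differences were positive for Sv2a, Shd and Lag3 (3.46, 2.29 and 2.24). They rest on baselines near 0 (10, 9 and 22 counts over the CFZ libraries, and means of 0.312, 0.152 and 0.358 CPM in DMSO) and are a description, and the calls of Shd and Lag3 were lost under ribosomal protein scaling.

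**Figure D5:**
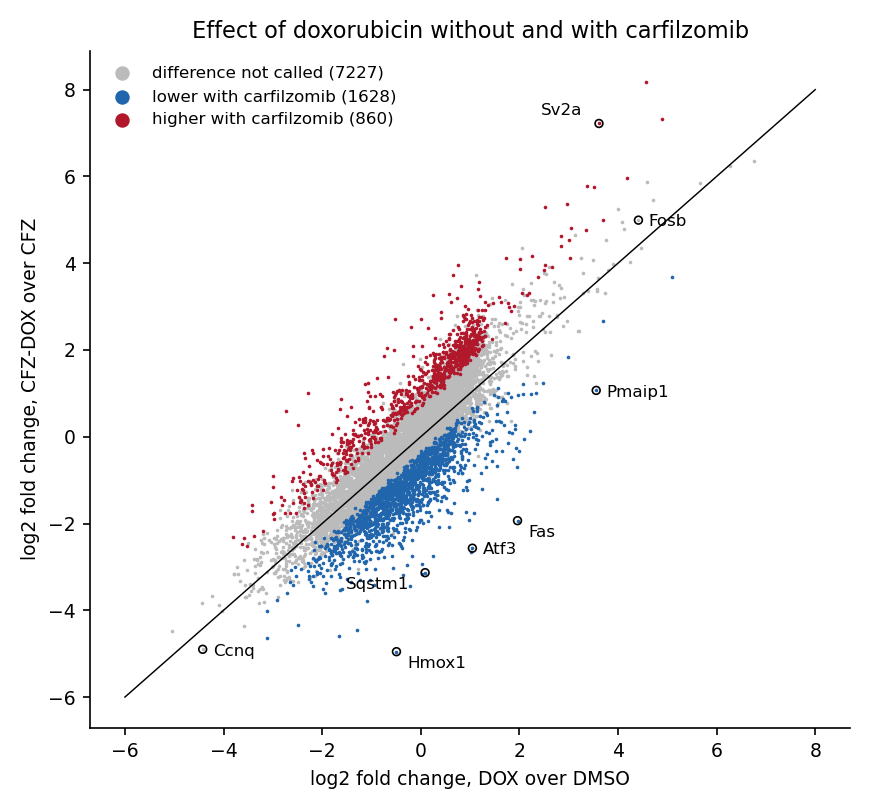
Log2 fold change of doxorubicin without carfilzomib (x axis, DOX over DMSO, 12-library fit) and with it (y axis, CFZ-DOX over CFZ, 6-library fit) for the 9715 genes averaging at least 5 CPM. Blue (1628) and red (860) points are genes whose effect was lower or higher with carfilzomib by the interaction test, grey points (7227) the rest, and the line marks equal effects. Hmox1, Fas, Atf3 and Sqstm1 lie far below the line, and Ccnq lies close to it.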

How the data were processed

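RNA of NIH/3T3 cells was sequenced in 12 libraries, of which 6 (CFZ and CFZ-DOX, 3 each, grouped by title) were compared here. The authors deposited raw read counts per Ensembl gene. Per the submitters' processing notes, STAR 2.7.9a, Trimmomatic 0.39 and Subread 2.0.2 (featureCounts) were used, with the build GRCm39. The annotation release and strand setting are not given in the sources used here. The table holds 56980 gene IDs, of which 52073 (91.4%) were matched to a symbol. Gene types came from GENCODE M21.

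Counts were fitted with edgeR 4.0.16 (R 4.3.3; robust quasi-likelihood, TMM, filterByExpr with a minimum count of 10 and a total of 15). CPM are on the TMM scale. P-values were adjusted by Benjamini-Hochberg over all genes tested and called under 0.05. Scalings by DESeq2-type factors, library size, upper quartile and 85 ribosomal protein genes were run beside it, with limma 3.58.1 and DESeq2 1.42.0 as other tests. The scripts were tested on simulated data. Tables were joined with pandas 2.3.3. The biological coefficient of variation was 20.5%. Libraries held 28278879 to 39685017 counts, and 3 counts equal 0.0756 to 0.106 CPM. Promoters are RefSeq's, on GRCm38.p6, and those of a single chromosome were left out.

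Genes were named by these rules: the 10 highest and 10 lowest changes with a mean of at least 5 CPM, no overlap and the same call under 5 scalings; fixed drug target and stress genes; up to 3 members of each list in its commoner direction and 1 in the other; and the 6 most abundant of genes under 0.1 CPM in CFZ. Members outside these rules, such as the few that went against their list, the fibroblast markers and histone variants, were chosen after their values were seen. The members and lists were chosen with earlier results of these data known. Results for some genes of these rules and lists are not reported here.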

Additional observations from a re-analysis of the deposited data

Results flagged for a closer look

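The effect of doxorubicin with carfilzomib (CFZ-DOX over CFZ) differed from its effect without carfilzomib (DOX over DMSO) for 27 of the genes named above, by the interaction term of edgeR's quasi-likelihood fit over 12 libraries. Values are log2 differences, negative where the change was lower with carfilzomib.

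Among stress genes the differences were −4.61 for Hmox1, −3.77 for Atf3, −3.37 for Sqstm1, −3.31 for Slc7a11, −3.11 for Osgin1, −2.09 for Dnajb1, −1.68 for Chac1, −1.42 for Nfe2l2, −1.22 for Nfe2l1 and −0.73 for Psmb5, and 0.96 for Ubb. Among p53 genes they were −4.05 for Fas, −2.64 for Pmaip1, −1.76 for Mdm2, −1.36 for Cdkn1a and −0.67 for Trp53. Doxorubicin's targets and transporters gave −1.11 for Top2a, −0.83 for Top2b, −2.57 for Abcb1a and −0.85 for Abcb1b, and the zinc finger genes Zfp770 and Zfp157 gave −1.99 and −1.05. Genes that rose furthest gave 3.46 for Sv2a, 2.29 for Shd, 2.24 for Lag3, 2.08 for Myo1a and 1.62 for Jsrp1, on levels near 0 in CFZ, so these 5 are a description. None of the 27 changed sign under any alternative run. The calls of Shd, Jsrp1, Lag3, Myo1a and Ubb were lost under ribosomal protein scaling, those of Zfp157, Psmb5, Abcb1b and Trp53 under the upper quartile, and those of Jsrp1, Ubb and Trp53 under library size. With 1 library left out, the call of Psmb5 was lost in 9 of the 12 fits, of Zfp157 in 6, of Abcb1b in 5, of Jsrp1 in 3, of Trp53 in 2 and of Shd in 1 (without DMSO 2).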

How the results depend on the processing

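Counts of calls depended most on scaling. Against 6087 genes higher and 5359 lower, ribosomal protein scaling gave 1703 and 10489, with 1538 and 9482 of at least 2-fold. With no filter, and so more genes tested, 9625 were higher (8507 of at least 2-fold) and 6175 lower. DESeq2 (6072 and 5308), limma-voom (6045 and 5466), the fit of all 12 libraries (6722 and 6144) and the replicate block (6120 and 5499) stayed within 1.5 times. Replicate numbers paired CFZ with CFZ-DOX samples only in part (correlations 0.305, 0.0184 and 0.104 for replicates 1 to 3). CFZ-DOX 1 and CFZ-DOX 3 correlated best with the CFZ sample of their own number, and CFZ-DOX 2 with CFZ 3 (0.159). The block changed no call of the 114 named genes. For the interaction (1408 higher, 1862 lower), the values were 2195 higher under the upper quartile, 246 and 5222 under ribosomal scaling, 2118 higher by DESeq2, 363 and 562 by glmTreat at 1.5-fold, 492 and 901 at an adjusted p under 0.01, and 2356 higher and 2675 lower with the replicate block (DOX and CFZ-DOX correlations 0.581, 0.353 and 0.654). Leaving out 1 library gave 792 (without CFZ 3) to 2172 (without CFZ-DOX 3) higher and 1357 to 2726 lower, with 833 and 899 higher without DMSO 2 and DMSO 3. Of the 114 named genes, 7 turned sign under the upper quartile: Psmb5 0.19, Abcb1b 0.24, Hspa1a 0.10, Hspa1b 0.14, Ubb 0.33, Hsf1 0.30 and Actb 0.08, none called with TMM. Under ribosomal scaling 5 did: Pmaip1 −0.60, Gapdh −0.00, mt-Co1 −0.54, mt-Nd1 −1.27 and Hist1h1c −0.15. With a filter of 1 CPM in 3 libraries, Abcb1b (0.00), Ubb (0.10) and Hsf1 (0.06) turned, and without CFZ-DOX 2, Hspa1a, Hspa1b and Ubb. Leaving out 1 library moved these from −1.38 to 0.14, from −1.16 to 0.11 and from −0.20 to 0.02. The cause was not tested. Chosen after the data were seen, leaving out CFZ-DOX 3 gave 1769 genes higher and 4691 lower under all 5 scalings. At these depths a gene with no count could hold up to 0.106 CPM.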
